A study of Mus musculus with 2 samples.

Results

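The replication-dependent histone genes were taken as every gene whose symbol starts with Hist1h, Hist2h, Hist3h or Hist4h, which gave 70 of the 53715 genes listed. They comprised 6 H1, 20 H2A, 19 H2B, 12 H3 and 13 H4 genes. The symbols placed 56 in the Hist1 gene cluster, 10 in Hist2, 3 in Hist3 and 1 in Hist4. All 70 were found by gene ID in the GENCODE M21 annotation. It calls 3 of them pseudogenes (Hist1h2aj, Hist1h2al and Hist3h2bb-ps), and these held 0.933% of the histone UMIs. UMIs (unique molecular identifiers) count the captured RNA molecules of a cell barcode.

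The values came from natural killer (NK) cells sorted as CD45.2+ CD3- NKp46+ cells from dissociated CT26_b2m-/- tumours. CT26 is a mouse colon carcinoma line, and b2m encodes beta-2 microglobulin, which MHC class I needs to reach the cell surface. There were 2 single-cell libraries, IL-15SA+IL-21Fc (the combination) and IL-15SA, each made from the pooled cells of all tumours of that treatment. Both groups thus received IL-15SA, no untreated group was analysed here, and treatment and library cannot be told apart. IL-15 and IL-21 are cytokines that act on NK cells. The sources used here do not give the strain, sex or age of the mice, the doses or the times. The series title names IL-21 and IL-21 with IL-15, and the groups here follow the sample titles.

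With 1 library per group there was no test, and no difference has a replicate check. Levels are summed UMIs of a group of barcodes per 1000000 UMIs of that group (CPM). Intervals in parentheses after a level, a ratio or a share are exact 95% intervals and cover counting error only. The question asked of the data was which histone genes these libraries measured, and how their levels compared between cycling and other NK cells in each library. Barcodes with at least 1 UMI of Ncr1, which encodes NKp46, were used. Those with 2 or more UMIs of Rrm2 and Pclaf together are called marked, and those with 0 are called unmarked. Rrm2 encodes a subunit of ribonucleotide reductase and Pclaf a partner of the replication clamp PCNA, and both are known S phase genes.

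Replication-dependent histone genes supply the histones that package newly copied DNA. H2A, H2B, H3 and H4 form the core of the nucleosome, and H1 binds the linker DNA between nucleosomes. The genes lie in clusters, have no introns as a rule, and are transcribed mostly in S phase. Their mRNAs are known to end just after a stem-loop that is bound by SLBP, in place of a poly(A) tail, although some are also made with a tail. A kit that primes on poly(A) would see tailed forms best, and the sources used here do not say how this kit captured RNA.

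The stem-loop is shown first because it sets these mRNAs apart. The annotated transcripts of each member were searched, past the coding part if any, for a stem of 6 pairs and a loop of 4 bases. The pattern, written GGNNNNTTTNNNNNCC and read on the transcript strand, was found in 44 of 70 members (62.9%). Searched anywhere in a transcript, it was found in 326 of all 141767 annotated transcripts (0.23%), those of the members included. This share counts transcripts and that of the members counts genes. The capitals below are the 16 bases of stem and loop, with 6 transcript bases on each side, and coordinates (GRCm38) give those 16 bases. Hist1h1c, Hist1h2ae and Hist1h4d are shown for their UMIs, Hist1h2ab, Hist1h2bm and Hist1h3c for the highest log2(CPM + 1) ratio of their class, and Hist2h2ac for a form of its own.
Hist1h1c (chr13:23739512-23739527, + strand): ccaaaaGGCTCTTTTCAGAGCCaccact
Hist1h2ae (chr13:23570668-23570683, - strand): aacaaaGGCTCTTTTCAGAGCCattcac
Hist1h2ab (chr13:23751572-23751587, + strand): aacaaaGGCTCTTTTCAGAGCCacccac
Hist1h2bm (chr13:21722506-21722521, + strand): cacaaaGGCTCTTTTCAGAGCCactaag
Hist1h3c (chr13:23745047-23745062, - strand): aaaaaaGGCTCTTTTAAGAGCCacctaa
Hist1h4d (chr13:23581950-23581965, + strand): accaaaGGCCCTTTTCAGGGCCactacc
Hist2h2ac (chr3:96220418-96220433, - strand): caaaaaGGCTCTTTTTAGAGCCaccaaa
The same 16 bases, those of Hist1h1c, were found in 26 members of the classes H1, H2A, H2B and H3. The form of Hist1h4d was found in 7 members, all H4, and the form of Hist1h3c in 6 members. The form of Hist2h2ac was found in that gene alone. The other 26 members, Hist1h1b and Hist1h2bc among them, had no match. This says only that the letters were not found in the part of the annotated transcripts that was searched.

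The promoters of the H1 genes with the highest and the lowest ratio and of the H2A gene with the highest ratio of all are shown next, because their levels differ most below. Each is the RefSeq window (GRCm38.p6) of 250 bases before to 50 bases after the start. Capitals mark 3 motifs on either strand: the CCAAT box, the octamer ATTTGCAT and the TATA box, searched as TATAAA. None of them contains another.
Hist1h2ab (chr13:23750838-23751137, + strand): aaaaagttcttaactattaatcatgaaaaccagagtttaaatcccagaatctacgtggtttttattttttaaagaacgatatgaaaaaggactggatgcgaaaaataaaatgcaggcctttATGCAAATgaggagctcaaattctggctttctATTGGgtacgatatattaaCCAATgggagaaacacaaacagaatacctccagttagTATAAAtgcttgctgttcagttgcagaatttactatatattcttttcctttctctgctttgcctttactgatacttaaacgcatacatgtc
Hist1h1b (chr13:21780576-21780875, - strand): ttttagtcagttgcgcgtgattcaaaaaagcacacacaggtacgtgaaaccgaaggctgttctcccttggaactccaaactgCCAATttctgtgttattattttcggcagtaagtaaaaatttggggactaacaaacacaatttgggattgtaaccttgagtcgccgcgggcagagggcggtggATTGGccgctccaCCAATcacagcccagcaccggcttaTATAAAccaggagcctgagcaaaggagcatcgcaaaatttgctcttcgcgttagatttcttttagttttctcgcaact
Hist1h1c (chr13:23738557-23738856, + strand): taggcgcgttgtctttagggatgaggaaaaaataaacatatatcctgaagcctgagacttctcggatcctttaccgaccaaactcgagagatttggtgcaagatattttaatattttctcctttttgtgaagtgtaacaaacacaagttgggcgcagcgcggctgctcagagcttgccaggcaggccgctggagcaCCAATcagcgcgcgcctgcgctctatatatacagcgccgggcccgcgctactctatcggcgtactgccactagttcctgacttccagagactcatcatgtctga
RefSeq windows were matched for 62 of 70 members. CCAAT was found in 85.5% of them, against 37.4% of all 32851 promoters, with all 50 matched H1, H2A, H2B and H3 genes holding it and 3 of 12 H4 genes. The TATA box was found in 56.5% of members, against 13.6% of all promoters. The octamer was found in 20.97% of members, against 1.74% of all promoters. It was present in 7 of 18 H2A and 6 of 16 H2B windows and in 0 windows of the other classes. Windows of neighbouring genes on opposite strands can overlap, as those of Hist1h2ah and Hist1h2bk do. The same letters can then count for both genes, for each of the 3 motifs. Of the 3 promoters shown, that of Hist1h2ab holds all 3 motifs, that of Hist1h1b lacks the octamer, and that of Hist1h1c holds CCAAT only. Other spellings of the TATA box were not searched, so its absence means only that the letters TATAAA were not found. A match is a description of the letters and no measure of binding.

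The combination library had 11052 Ncr1-positive barcodes, and the IL-15SA library had 7792. In the combination library 2855 of them were marked (25.8%), 1755 had 1 marker UMI and 6442 were unmarked. Of those of the IL-15SA library, 2743 were marked (35.2%), 1394 had 1 marker UMI and 3655 were unmarked. Marked barcodes were deeper: their median was 3831 UMIs against 2132 UMIs in unmarked barcodes of the combination library, and 4655 against 2616 UMIs in the IL-15SA library. When each barcode was thinned to 1000 UMIs before marking, 11.3% of the barcodes that still held Ncr1 were marked in the combination library and 14.7% in the IL-15SA library. The libraries shared 60 barcode sequences, 0.715% of the smaller library.

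The sorted cells were checked against marker lists. All 12 NK markers were detected, and together they made up 26333 CPM in marked and 32352 CPM in unmarked barcodes of the combination library, and 31525 and 37619 CPM in the IL-15SA library. Ncr1 is 1 of the 12, and its detection was fixed beforehand because barcodes were chosen by it. Of these sums, Ncr1 made up 1335 and 1735 CPM in the combination library and 1372 and 1628 CPM in the IL-15SA library. The 6 T cell markers summed to between 135 and 186 CPM over the 4 groups, most of it Cd3g, with Cd3e at most 1.55 CPM. The 5 markers of type 1 innate lymphoid cells, which also carry NKp46, summed to 310.3 CPM in marked and 413 CPM in unmarked barcodes of the combination library, and to 228 and 326 CPM in the IL-15SA library. Macrophage and neutrophil markers other than Cd68 were at most 0.333 CPM each, with C1qa and S100a9 at 0, and Cd68 was between 26.7 and 39.7 CPM. The 8 tumour or stroma markers summed to 193 CPM in marked and 223 CPM in unmarked barcodes of the combination library, and to 94.1 and 102 CPM in the IL-15SA library. The NK list thus summed far higher than each other list in both groups. The lists differ in length and in the level of their genes, and Gzma alone made up 13179 CPM in marked barcodes of the combination library. Type 1 innate lymphoid cells share NKp46, so these sums do not tell them from NK cells. Histone genes are used by every dividing cell, so no cell type here could serve as one that should lack them.

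The histone genes were unequally measured. Over the Ncr1-positive barcodes of both libraries the members held 147178 UMIs, and 4 members (Hist1h1c, Hist1h2ae, Hist1h2bc and Hist1h4d) held 55.7% of them. H1 genes held 56686 UMIs, H2A genes 34409, H2B genes 28057, H4 genes 22292 and H3 genes 5734. Of the members, 22 had at least 1000 UMIs, 9 had under 10 and 5 had 0 UMIs (Hist1h2aa, Hist2h2aa1, Hist2h2bb, Hist2h3c1 and Hist3h2a). A count of 0 allows a level of up to 0.0936 CPM in the combination library and 0.102 CPM in the IL-15SA library (3 counts per library, counting error only). A 0 that comes from the gene model or the counting step is not covered by this bound. The genes known for their expression in the testis were at or near 0, with 2 UMIs of Hist1h1t, 2 of Hist1h2ba and 0 of Hist1h2aa.

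Many members are near-identical copies, so that a value of 1 gene can hold reads of another or lose reads that fit several. The counting tool is named by the submitters, but its treatment of such reads is not stated in the sources used here. Between members of the same class and length, the median identity of the coding sequence was 96.7% for H2A, 95.6% for H2B, 97.5% for H3 and 93.9% for H4. Hist2h2aa1, at 0 UMIs, has the same coding sequence as Hist2h2aa2, which had 332 UMIs. The transcripts of Hist1h1c, Hist1h2bc, Hist1h4d and Hist1h1b are mostly their own: 94.9%, 74.6%, 100% and 100% of their 100-base windows occur in no other member. That share was 69.3% for Hist1h2ae, 47.6% for Hist1h2ab and 11.6% for Hist1h2ai. The 45 members with at least 50% such windows held 88.8% of the UMIs.

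Histone RNA was more abundant in marked NK cells, in both libraries and to a like degree. In the combination library the members summed to 3579 CPM (3545 to 3613) in marked and 1597 CPM (1577 to 1617) in unmarked barcodes, a ratio of 2.24 (2.21 to 2.28). In the IL-15SA library they summed to 3349 CPM (3318 to 3379) in marked and 1530.2 CPM (1507 to 1554) in unmarked barcodes, a ratio of 2.19 (2.15 to 2.23). Barcodes with 1 marker UMI lay near the unmarked ones, at 1795 CPM in the combination library and 1691 CPM in the IL-15SA library. On average a marked barcode held 15.1 histone UMIs and an unmarked one 3.82 in the combination library, and 17.02 and 4.60 in the IL-15SA library. Unmarked cells were thus not without histone RNA: 89.4% of them in the combination library and 92.8% in the IL-15SA library had at least 1 histone UMI. Without Hist1h1c, the member with the most UMIs, the ratio was 2.99 in the combination library and 2.96 in the IL-15SA library.

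The class sums differed in how far marked and unmarked cells stood apart. H2A genes had the largest ratio, with 1057 CPM in marked and 196 CPM in unmarked barcodes of the combination library, a ratio of 5.39 (5.18 to 5.61). With IL-15SA alone H2A genes had 984 CPM in marked and 211 CPM in unmarked barcodes, a ratio of 4.66 (4.46 to 4.87). H3 genes followed with ratios of 3.18 (2.91 to 3.48) in the combination library and 3.46 (3.14 to 3.81) in the IL-15SA library, and H4 genes with 2.55 (2.44 to 2.65) and 2.57 (2.45 to 2.69). H2B genes had ratios of 1.80 (1.74 to 1.87) and 1.90 (1.82 to 1.98), and H1 genes the smallest, 1.49 (1.46 to 1.53) and 1.45 (1.41 to 1.49). This order of the 5 sums was the same in both libraries, but below H2A it rested on single genes. Left out after the values were seen, the gene with the most UMIs of each class changed the sums: H1 without Hist1h1c had 3.27 (3.13 to 3.41) in the combination library and 3.02 (2.89 to 3.16) in the IL-15SA library, H4 without Hist1h4d 1.39 (1.28 to 1.496) and 1.51 (1.39 to 1.65), and H2B without Hist1h2bc 2.98 (2.81 to 3.17) and 2.92 (2.73 to 3.13). H3 without Hist1h3e had 3.31 (2.99 to 3.67) and 3.72 (3.33 to 4.16), and H2A without Hist1h2ae was still the highest, with 4.15 (3.93 to 4.37) and 3.90 (3.68 to 4.14), though its interval overlapped that of H3 in the IL-15SA library. By the median log2 ratio of the members that passed, H4 was lowest (0.51 in the combination library and 0.63 in the IL-15SA library) and H2A highest (1.67 and 1.64), with H1 at 1.08 and 1.21. These medians include members that were under 5 CPM in unmarked barcodes and passed through the marked ones. H2A genes made up 29.5% of the histone UMIs in marked and 12.3% in unmarked barcodes of the combination library, and 29.4% and 13.8% in the IL-15SA library (UMIs are not scaled by length). H1 genes made up 31.9% in marked and 47.8% in unmarked barcodes of the combination library, and 33.4% and 50.5% in the IL-15SA library. By gene cluster, Hist1 had a ratio of 2.26 (2.22 to 2.29) in the combination library and 2.19 (2.15 to 2.23) in the IL-15SA library, and Hist2 had 2.05 (1.88 to 2.24) and 2.26 (2.04 to 2.52).

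Member by member, 43 of 70 reached a mean of 5 CPM over marked and unmarked barcodes, the same 43 in both libraries. In the combination library 24 of these 43 were at least 2-fold higher in marked barcodes on the log2(CPM + 1) scale, and 4.39% of all 9264 genes that passed the same filter were. In the IL-15SA library 26 were, against 4.06% of all 9024 genes. Of the 43, 23 were past 2-fold in both libraries, Hist1h1e in the combination library only, and Hist1h3d, Hist2h3b and Hist3h2ba in the IL-15SA library only. Of the 43, 12 in the combination library and 11 in the IL-15SA library were under 5 CPM in unmarked barcodes and passed through the marked ones. Of the 31 members at 5 CPM or more in unmarked barcodes of the combination library, 16 were past 2-fold, where 3.51% of all genes that passed and were at 5 CPM or more in unmarked barcodes were. Of the 32 in the IL-15SA library, 19 were, against 3.16% of all such genes. Not 1 member was 2-fold lower in marked barcodes, where 0.205% of all genes in the combination library and 0.111% in the IL-15SA library were. The log2 ratios of the 43 spanned -0.23 to 3.30 in the combination library and -0.28 to 3.23 in the IL-15SA library, with medians of 1.39 and 1.35. The other 27 members held 1881 UMIs together, and 22 of them had at least 1 UMI. Higher in marked barcodes were 18 in the combination library and 17 in the IL-15SA library, with no share over other low genes to set beside these counts. The highest of the 27, Hist1h2ah, had 6.90 CPM in marked and 0.650 CPM in unmarked barcodes of the combination library.

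**Figure D1:**
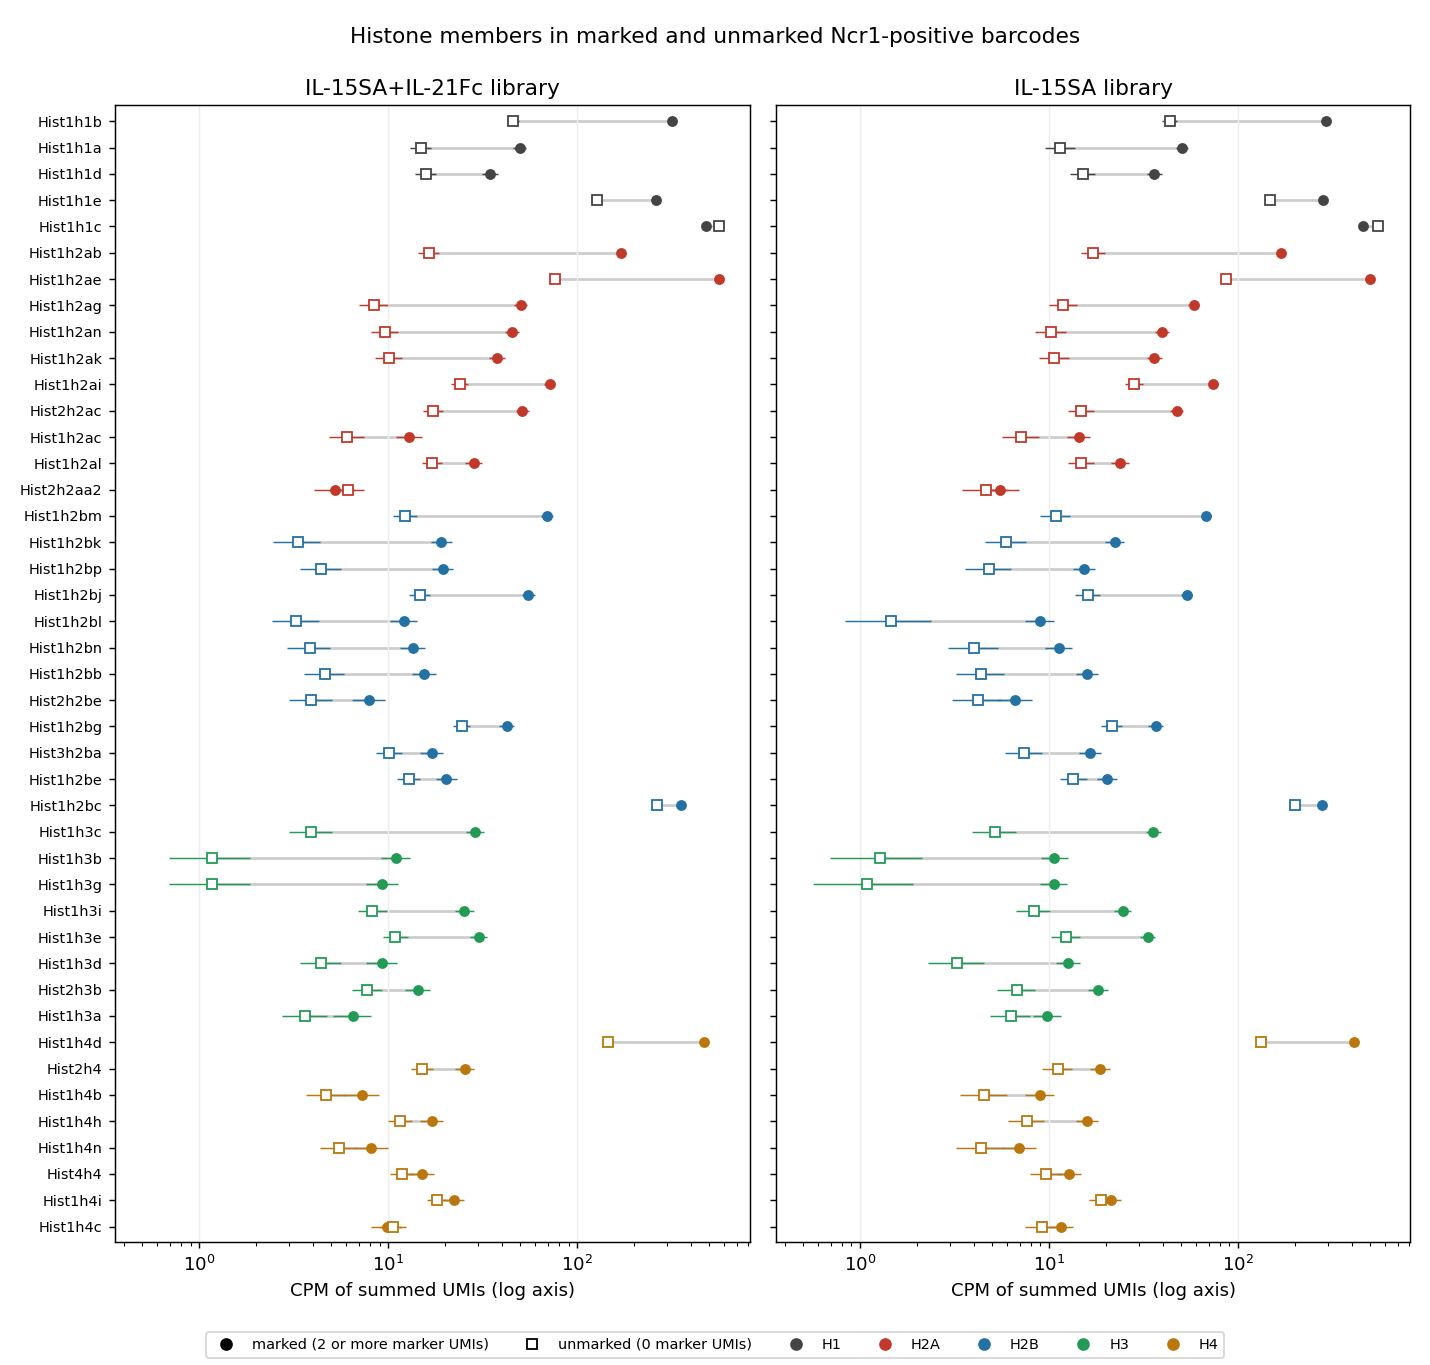
Each row is 1 of the 43 histone genes that passed, grouped by class. Filled circles give the level in marked barcodes and open squares that in unmarked barcodes, in CPM on a log axis with exact 95% Poisson intervals, for the combination library (left) and the IL-15SA library (right). Hist1h1c alone had its circle left of its square in both libraries.

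The H1 genes did not share 1 pattern. Hist1h1c, at chr13:23738808-23740367, encodes the linker histone H1.2 and had the most UMIs of all members (31557). It had 477 CPM in marked and 561 CPM in unmarked barcodes of the combination library, a ratio of 0.851 (0.823 to 0.880), and 457 CPM in marked and 554 CPM in unmarked barcodes of the IL-15SA library, a ratio of 0.826 (0.797 to 0.856). It was the one passing member lower in marked barcodes of both libraries. Hist1h1b, at chr13:21779883-21780625, encodes H1.5 and lay at the other end of the class, with 318 CPM in marked and 45.6 CPM in unmarked barcodes of the combination library, a ratio of 6.97 (6.43 to 7.56). The IL-15SA library was alike, with Hist1h1b at 291 CPM in marked and 43.6 CPM in unmarked barcodes, a ratio of 6.67 (6.06 to 7.34). Hist1h1a, which encodes H1.1, had ratios of 3.34 (2.87 to 3.91) in the combination library and 4.42 (3.65 to 5.39) in the IL-15SA library. Hist1h1e, which encodes H1.4, had 261 CPM in marked and 127 CPM in unmarked barcodes of the combination library, a ratio of 2.06 (1.95 to 2.18), and a ratio of 1.91 (1.80 to 2.02) in the IL-15SA library. Its annotated span overlaps that of Hist1h2be on the same strand, so reads there could belong to either. In plain CPM, Hist1h1c was the highest member in unmarked barcodes of both libraries and lay behind Hist1h2ae alone in marked ones. UMIs count molecules, so dividing by coding length favours short genes and gives no ranking of levels. On that scale Hist1h1c was also the highest in unmarked barcodes (881 and 871 CPM per kb). It then lay behind Hist1h4d, Hist1h2ae and Hist1h2bc in marked ones (750.3 and 719 CPM per kb). Hist1h4d stood first in marked barcodes on that scale, with 1514 CPM per kb in the combination library and 1338 CPM per kb in the IL-15SA library.

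The H2A genes, whose products pair with H2B in the nucleosome, held the widest gaps between marked and unmarked cells. Hist1h2ab, at chr13:23751126-23751598, had 169.9 CPM in marked and 16.4 CPM in unmarked barcodes of the combination library, a ratio of 10.4 (9.10 to 11.9), and 169 CPM in marked and 17.1 CPM in unmarked barcodes of the IL-15SA library, a ratio of 9.87 (8.501 to 11.5). This was the highest log2 ratio of the 43 members in each library. Hist1h2ae, at chr13:23570517-23571220 and the H2A gene with the most UMIs, had 562 CPM in marked and 76.7 CPM in unmarked barcodes of the combination library, a ratio of 7.33 (6.89 to 7.80). The gap was narrower with IL-15SA alone, where Hist1h2ae had 498 CPM in marked and 86.6 CPM in unmarked barcodes, a ratio of 5.75 (5.37 to 6.15). Hist1h2ai had ratios of 2.98 (2.64 to 3.38) in the combination library and 2.60 (2.29 to 2.97) in the IL-15SA library, and Hist2h2ac had 2.98 (2.58 to 3.45) and 3.20 (2.69 to 3.82). Of 10 H2A members that passed, 7 were past 2-fold in each library. Over all genes that passed, 4.39% were in the combination library and 4.06% in the IL-15SA library, and these shares also stand beside the class counts below. The class counts include members that passed through the marked barcodes, as given above. Hist2h2aa2 was the lowest of the class, with ratios of 0.858 (0.613 to 1.19) in the combination library and 1.19 (0.825 to 1.73) in the IL-15SA library, and both intervals hold 1.

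Among the H2B genes, 12 passed, and 7 in the combination library and 8 in the IL-15SA library were past 2-fold. Most H2B UMIs came from Hist1h2bc, at chr13:23684199-23692908, which was the lowest of the class by ratio. It had 356 CPM in marked and 263 CPM in unmarked barcodes of the combination library, a ratio of 1.35 (1.30 to 1.41), and 279.9 CPM in marked and 199.7 CPM in unmarked barcodes of the IL-15SA library, a ratio of 1.40 (1.33 to 1.48). On the log2(CPM + 1) scale Hist1h2bm stood highest, with 69.3 CPM in marked and 12.3 CPM in unmarked barcodes of the combination library, a ratio of 5.64 (4.81 to 6.64), and a ratio of 6.27 (5.18 to 7.66) in the IL-15SA library. Hist1h2bj had ratios of 3.76 (3.23 to 4.39) in the combination library and 3.34 (2.83 to 3.96) in the IL-15SA library, and Hist1h2bg had 1.73 (1.51 to 1.98) and 1.71 (1.46 to 2.0). H2A and H2B genes often lie head to head: 14 of the 15 divergent neighbours less than 1000 bases apart were such pairs. Both genes passed in 7 pairs, and in 6 of these 7 the H2A gene had the larger log2 ratio in both libraries. Some gaps were small: in the combination library Hist1h2ak had a ratio of 3.74 (3.11 to 4.52) and Hist1h2bn 3.51 (2.59 to 4.82). The intervals of Hist1h2an and Hist1h2bp overlapped there too. Both H2B genes were under 5 CPM in unmarked barcodes, where adding 1 CPM lowers a log2 ratio most. No share over other gene pairs stands beside this count. Hist1h2ae and Hist1h2bg, 176 bases apart, differed most plainly, with log2 ratios of 2.86 and 0.77 in the combination library and 2.51 and 0.74 in the IL-15SA library.

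The H3 genes were the lowest class in UMIs, with 35.6 CPM as the highest level of any member in the 4 groups. Of 8 that passed, 5 in the combination library and 7 in the IL-15SA library were past 2-fold. Hist1h3c, at chr13:23744973-23745602, had 28.8 CPM in marked and 3.90 CPM in unmarked barcodes of the combination library, a ratio of 7.38 (5.60 to 9.88), and 35.6 CPM in marked and 5.19 CPM in unmarked barcodes of the IL-15SA library, a ratio of 6.87 (5.22 to 9.21). Hist1h3e, the H3 gene with the most UMIs (1252), had ratios of 2.77 (2.30 to 3.34) in the combination library and 2.71 (2.23 to 3.31) in the IL-15SA library. Hist1h3i had 3.06 (2.48 to 3.80) and 2.96 (2.34 to 3.78), and Hist2h3b had 1.85 (1.46 to 2.36) and 2.71 (2.08 to 3.55). The intervals of these 4 genes lay above 1 in both libraries. Hist1h3a was the lowest of the class, with ratios of 1.78 (1.25 to 2.56) in the combination library and 1.55 (1.15 to 2.11) in the IL-15SA library.

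Most UMIs of the H4 genes, which encode the core histone H4, came from 1 gene. Hist1h4d, at chr13:23581598-23582735, held 16629 of the 22292 H4 UMIs. It had 468 CPM in marked and 146 CPM in unmarked barcodes of the combination library, a ratio of 3.21 (3.06 to 3.37), and 413 CPM in marked and 132 CPM in unmarked barcodes of the IL-15SA library, a ratio of 3.13 (2.95 to 3.32). It was the one H4 gene of 8 that passed to be past 2-fold on the log2(CPM + 1) scale in either library. The next by UMIs had smaller ratios: Hist1h4i had 1.22 (1.03 to 1.45) in the combination library and 1.14 (0.952 to 1.37) in the IL-15SA library. Hist2h4 had 1.68 (1.41 to 1.996) and 1.68 (1.35 to 2.10), and Hist1h4h had 1.47 (1.19 to 1.80) and 2.08 (1.61 to 2.71). Hist1h4c was the lowest, with 0.921 (0.721 to 1.17) in the combination library and 1.26 (0.974 to 1.63) in the IL-15SA library, and both intervals hold 1.

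Shares of barcodes with a UMI were compared after thinning each barcode to 1000 UMIs, and no barcode was too shallow. At that depth 87.5% (86.2 to 88.7) of marked and 72.8% (71.7 to 73.8) of unmarked barcodes of the combination library held a histone UMI, and 87.1% (85.8 to 88.3) and 71.8% (70.3 to 73.3) in the IL-15SA library. The unthinned shares were 97.6% and 89.4% in the combination library, and 98.5% and 92.8% in the IL-15SA library. An H2A UMI was seen in 50.5% (48.6 to 52.3) of marked and 16.9% (15.97 to 17.8) of unmarked barcodes of the combination library, and in 49.7% (47.8 to 51.5) and 18.4% (17.1 to 19.7) in the IL-15SA library (unthinned, 77.6% and 32.1%, and 80.02% and 40.3%). Hist1h1c was seen in like shares of both groups: 33.8% (32.1 to 35.6) of marked and 35.8% (34.6 to 36.9) of unmarked barcodes of the combination library, and 34.8% (33.03 to 36.6) and 36.7% (35.2 to 38.3) in the IL-15SA library (unthinned, 68.3% and 55.7%, and 70.03% and 61.4%). A class with large ratios was thus also seen in more of the marked barcodes.

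Across the marker count the classes parted step by step. From 0 through 1, 2, 3 to 4, 5 to 9 and 10 or more marker UMIs, the members summed to 1597, 1795, 2065, 2864, 3953 and 4372 CPM in the combination library. With IL-15SA alone they summed to 1530.2, 1691, 2017, 2419, 3169 and 4346 CPM. Each step was higher than the one before. H2A genes spanned 196 to 1516 CPM over these steps in the combination library and 211 to 1449 CPM in the IL-15SA library, and held the most UMIs of the 5 classes in the last step of both. The H2B sum levelled off: it was at 804 CPM at 5 to 9 marker UMIs and 667 CPM at 10 or more in the combination library, and at 599 and 623 CPM in the IL-15SA library. Most of this sum came from Hist1h2bc, and the steps were not taken without it. Depth moved with the marker count: the first step had a median of 2132 UMIs per barcode and the last 5351.5 in the combination library, against 2616 and 6612 UMIs in the IL-15SA library. In barcodes matched on their UMI total, the ratio of marked over unmarked was 2.30 in the combination library and 2.27 in the IL-15SA library.

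**Figure D2:**
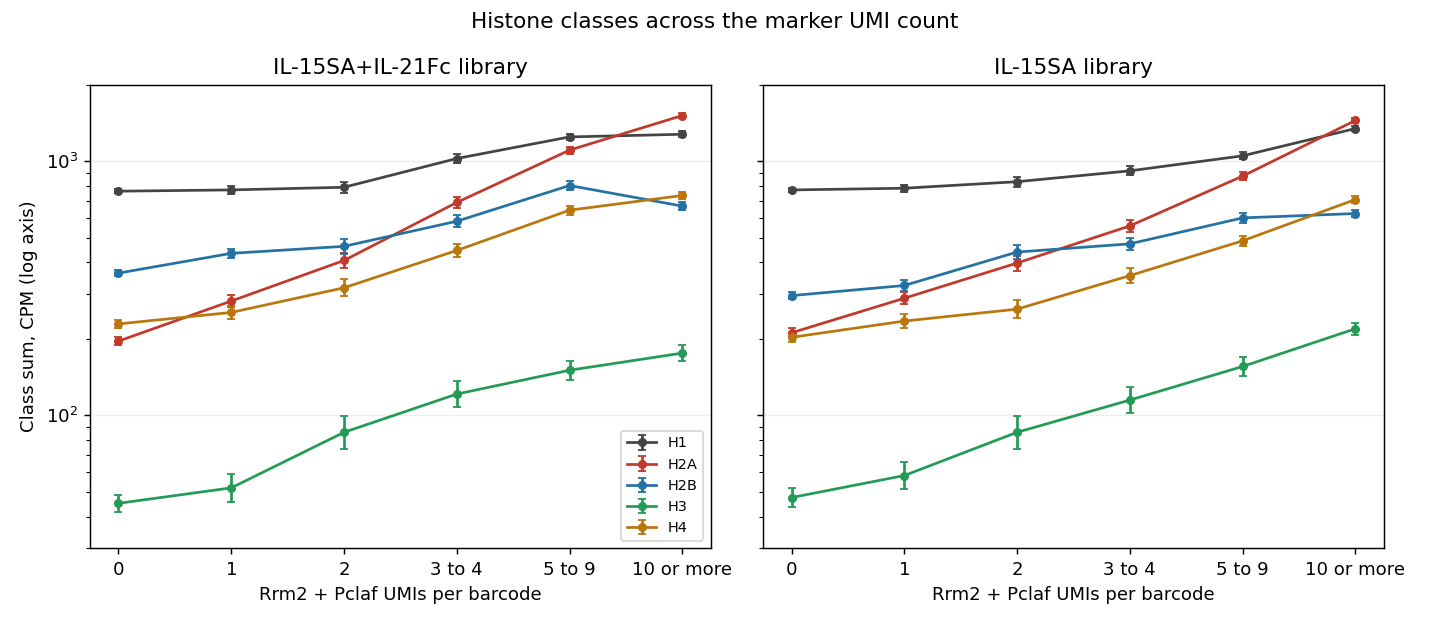
The summed level of each histone class (CPM, log axis, exact 95% Poisson intervals) is plotted against the Rrm2 and Pclaf UMIs of a barcode, for the combination library (left) and the IL-15SA library (right). The H2A line crosses the H2B and H1 lines on its way up in both libraries.

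A second set of genes was used to split the barcodes further. Whether this split separates S phase from later steps was not tested. Barcodes were also marked by 2 or more UMIs of Ccnb1, Ccnb2, Cdc20 and Cenpa together, genes known to peak in G2 and mitosis, and those with 1 UMI of either set were left aside. In the combination library 1920 barcodes had both marks, 587 the S phase marks only, 948 the mitosis marks only and 4172 neither. Histone levels were 4053 CPM with both marks, 1905 CPM with S phase marks only and 1817 CPM with mitosis marks only, against 1540.1 CPM with neither. The IL-15SA library had 1877, 490, 693 and 2087 barcodes in these groups, and histone levels were 3741, 1987 and 1654 CPM, against 1531 CPM with neither. The high level was thus that of barcodes with both marks, in both libraries. Barcodes with both marks were also the deepest, with a median of 4281 UMIs against 2800 UMIs with S phase marks only in the combination library, and 5263 against 3246 UMIs in the IL-15SA library. The part of depth in this difference was not tested.

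The classes kept different patterns over these 4 groups. H2A genes had 1228 CPM with both marks, 442 CPM with S phase marks only and 249.9 CPM with mitosis marks only, against 187 CPM with neither, in the combination library. With IL-15SA alone they had 1131, 444 and 240.0 CPM, against 202 CPM. The H2B sum differed from this: with S phase marks only its ratio over barcodes with neither was 0.831 (0.755 to 0.914) in the combination library and 1.14 (1.04 to 1.26) in the IL-15SA library. With mitosis marks only the H2B ratio was 1.44 (1.35 to 1.54) and 1.37 (1.26 to 1.49). Most H2B UMIs came from Hist1h2bc, and the sum without it was not taken over these groups. The pattern may thus be that of this gene and not of the class. Hist1h1c was lowest with S phase marks only, at 397 CPM against 551 CPM with neither in the combination library and 379 against 586 CPM in the IL-15SA library. Hist1h2ab with both marks stood at 15.1 times (12.7 to 18.2) its level with neither in the combination library, and at 11.7 times (9.60 to 14.4) in the IL-15SA library.

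**Figure D3:**
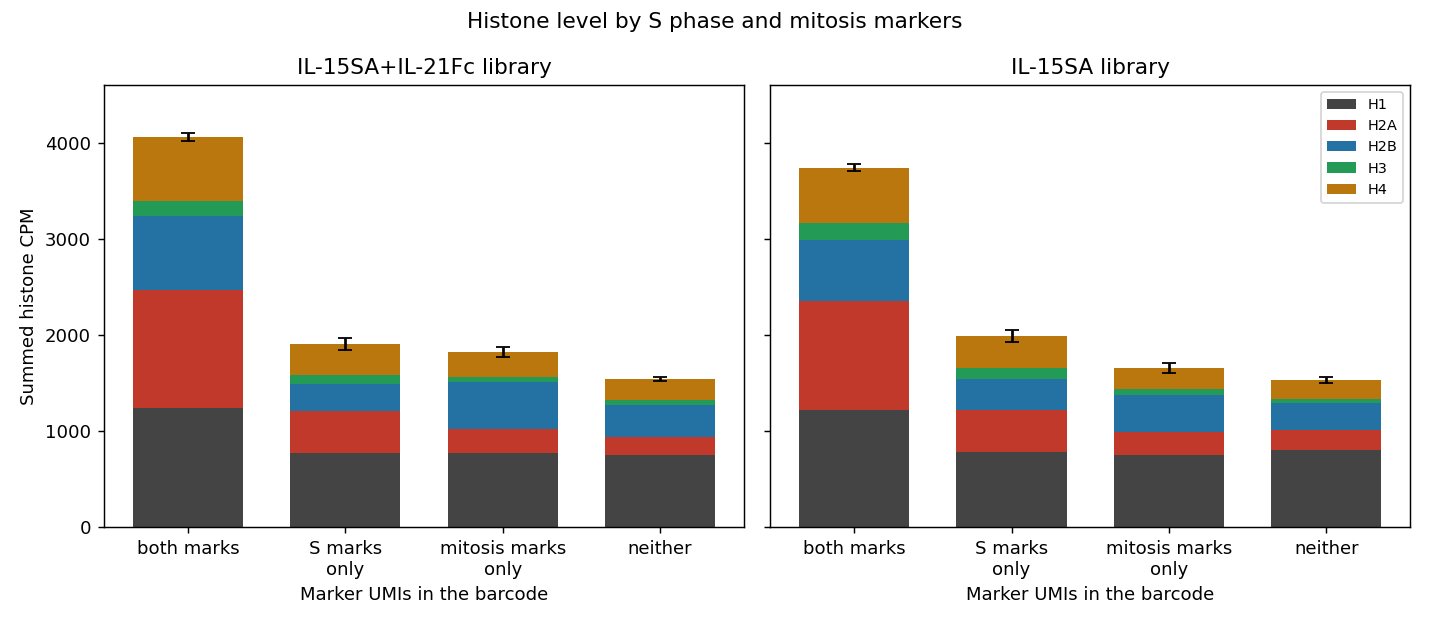
Bars give the summed histone level in CPM, split by class, in barcodes with both marks, with S phase marks only, with mitosis marks only and with neither, and whiskers are exact 95% Poisson intervals of the sum. The bar with both marks is the highest in the combination library (left) and in the IL-15SA library (right).

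Members were also grouped by their annotated 3' end. Of them, 22 have an annotated transcript that ends under 100 bases past the stem-loop, 22 run 100 bases or more past it, and 26 hold no stem-loop in the annotated transcript. Members that end close to the stem-loop summed to 545 CPM in marked and 121 CPM in unmarked barcodes of the combination library, a ratio of 4.49 (4.26 to 4.73), and had a ratio of 4.50 (4.25 to 4.77) in the IL-15SA library. Members that run on summed to 2019.6 CPM in marked and 1056 CPM in unmarked barcodes of the combination library, a ratio of 1.91 (1.88 to 1.95), and had a ratio of 1.80 (1.76 to 1.84) in the IL-15SA library. Members with no annotated stem-loop had ratios of 2.41 (2.34 to 2.49) and 2.54 (2.45 to 2.64). These sums rested on single genes as well. Without Hist1h1c, left out after the values were seen, members that run on had 3.12 (3.03 to 3.20) in the combination library and 2.87 (2.79 to 2.96) in the IL-15SA library. Without Hist1h2ab, members that end close had 3.57 (3.37 to 3.78) and 3.64 (3.41 to 3.88), and without Hist1h2bc, members with no stem-loop had 4.20 (4.01 to 4.39) and 4.03 (3.83 to 4.25). The range within each group was wide: Hist1h2ae runs 151 bases past its stem-loop and Hist1h1c 840 bases, and they lie at the top and the bottom of the same group. Of those that passed, 10 of 15 that end close were past 2-fold in each library, against 5 of 15 in the combination library and 6 of 15 in the IL-15SA library that run on. Members with no annotated stem-loop had 9 of 13 past 2-fold in the combination library and 10 of 13 in the IL-15SA library. Over all genes that passed, 4.39% were in the combination library and 4.06% in the IL-15SA library. The median log2 ratio of those that passed was 1.84 for members that end close and 0.77 for members that run on in the combination library, and 1.65 and 0.93 in the IL-15SA library. For members with no annotated stem-loop it was 1.58 in the combination library and 1.46 in the IL-15SA library. The median over all genes was 0.001 in the combination library and 0.007 in the IL-15SA library. These counts and medians include the 12 members of the combination library and 11 of the IL-15SA library that passed through the marked barcodes. Members let in by their marked level can raise the counts and medians. None of the H1 genes that passed ended close to the stem-loop, so class and 3' end overlap, and their parts were not tested.

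**Figure D4:**
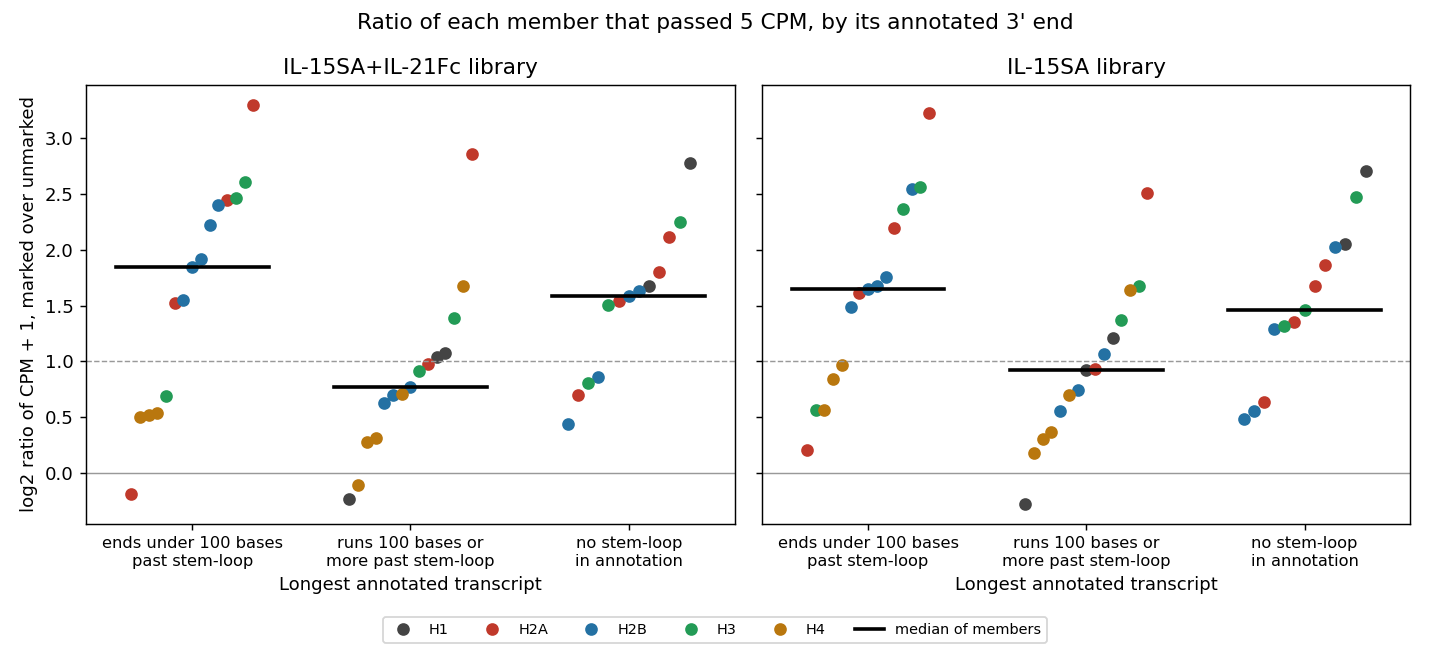
Points are the histone genes that passed 5 CPM, coloured by class, with the log2 ratio of CPM + 1 (marked over unmarked) on the vertical axis and the annotated 3' end on the horizontal axis, for the combination library (left) and the IL-15SA library (right). Black bars are medians of the points and the dashed line is 2-fold. The points include members that passed through the marked barcodes. In the combination library the median is 1.84 for members that end close to the stem-loop, 0.77 for those that run on and 1.58 for those with no annotated stem-loop.

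Genes that act beside the histone genes were taken from 5 lists. Counts past 2-fold are on the log2(CPM + 1) scale. Over all genes that passed, 4.39% were past 2-fold in the combination library and 4.06% in the IL-15SA library. Of the replication-independent histones, 9 of 11 passed and 4 were past 2-fold in each library: H2afx, H2afv, H2afz and Cenpa. H2afx, the H2A variant phosphorylated at DNA breaks, had 520.3 CPM in marked and 91.2 CPM in unmarked barcodes of the combination library and a ratio of 5.71, and a ratio of 5.03 in the IL-15SA library. H2afz had ratios of 2.66 in the combination library and 2.29 in the IL-15SA library, H2afv 2.78 and 2.81, and Cenpa, the centromeric H3, 3.14 and 3.04. Cenpa is also 1 of the mitosis marks used above. The H3.3 genes were near even: H3f3a had ratios of 1.26 and 1.29, and H3f3b 1.13 and 1.09. H3f3b had 5911 CPM in marked and 5209 CPM in unmarked barcodes of the combination library. The linker histone H1f0 had a ratio of 0.999 in the combination library and 1.04 in the IL-15SA library.

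Factors that transcribe and process histone mRNA lay closer to even than the members did by their median. Of the 16 listed, 15 passed and 0 were past 2-fold on the log2(CPM + 1) scale in either library. Their median log2 ratio was 0.48 in the combination library and 0.46 in the IL-15SA library. Slbp, the stem-loop binding protein, had 127 CPM in marked and 65.5 CPM in unmarked barcodes of the combination library, a ratio of 1.94, and 112 CPM in marked and 69.2 CPM in unmarked barcodes of the IL-15SA library, a ratio of 1.61. Npat, the coactivator of histone gene transcription, had ratios of 1.12 in the combination library and 1.59 in the IL-15SA library. Eri1, a nuclease that trims histone mRNA ends, had 1.95 and 1.69, Casp8ap2 (FLASH), a processing factor, 1.77 and 1.63, and Lsm11, a part of the U7 snRNP, 2.001 and 1.61. None of these ratios reached the H2A or H3 class ratios above. In the combination library those of Slbp, Eri1 and Lsm11 lay above the class ratios of H2B (1.80) and H1 (1.49). In the IL-15SA library the ratios of the factors named here lay between those of H1 (1.45) and H2B (1.90).

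Histone chaperones were mixed, with 7 in the combination library and 4 in the IL-15SA library of 17 that passed being past 2-fold on the log2(CPM + 1) scale. Asf1b, which hands H3 and H4 to the assembly factors, had 342 CPM in marked and 42.9 CPM in unmarked barcodes of the combination library, a ratio of 7.97, and a ratio of 7.59 in the IL-15SA library. Chaf1a and Chaf1b, subunits of chromatin assembly factor 1, had ratios of 3.63 and 2.53 in the combination library and 2.79 and 2.99 in the IL-15SA library. Nasp, a chaperone of soluble H3 and H4, had 2.68 in the combination library and 2.002 in the IL-15SA library. Of the 25 DNA replication genes listed, 24 passed, and Cdt1 was at 0 CPM in marked and unmarked barcodes of both libraries. Past 2-fold were 24 in the combination library and 19 in the IL-15SA library, with Cdc6, a loader of the replicative helicase, at 6.05 and 4.56. Tk1, Tyms and Rrm1, which supply deoxynucleotides, had ratios of 5.28, 4.98 and 4.36 in the combination library and 4.60, 4.05 and 3.79 in the IL-15SA library. All 18 mitosis genes were past 2-fold in each library, with Nusap1 at 9.60 and 9.02, Top2a at 7.88 and 6.91, Plk1 at 7.45 and 6.80 and Bub1 at 6.93 and 7.50. Mki67 had ratios of 5.71 in the combination library and 5.996 in the IL-15SA library. The members' median log2 ratio of 1.39 in the combination library and 1.35 in the IL-15SA library thus lay below those of DNA replication (1.60 and 1.41) and mitosis (2.43 and 2.41).

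Between the treatments the histone sums were close. In marked barcodes they were 3579 CPM in the combination library and 3349 CPM in the IL-15SA library, a ratio of 1.07 (1.05 to 1.08). In unmarked barcodes they were 1597 and 1530.2 CPM, a ratio of 1.04 (1.02 to 1.06). Over all Ncr1-positive barcodes, of which fewer were marked in the combination library, they were 2369 and 2415 CPM, a ratio of 0.981 (0.971 to 0.991). The direction of the last 2 was not kept when barcodes were matched on UMIs, with ratios of 0.996 in unmarked and 1.07 in all Ncr1-positive barcodes, and per barcode with no scaling the ratio was 0.886 in marked and 0.830 in unmarked barcodes. The combination library was the shallower, with a median of 2424 UMIs per Ncr1-positive barcode against 3165.5 UMIs in the IL-15SA library. Its tumour or stroma marker sum was also the higher, as given above. With barcodes of 2 or more such marker UMIs left out (920 and 386 barcodes), the ratio in marked barcodes was 1.11, and the part of depth in these small differences was not tested.

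By class, the ratio of the combination over the IL-15SA library in marked barcodes was 1.17 (1.13 to 1.20) for H2B, 1.12 (1.08 to 1.16) for H4, 1.07 (1.05 to 1.10) for H2A, 1.02 (0.997 to 1.04) for H1 and 0.872 (0.819 to 0.929) for H3. In unmarked barcodes it was 1.23 (1.17 to 1.28) for H2B, 1.13 (1.07 to 1.19) for H4, 0.927 (0.878 to 0.979) for H2A, 0.989 (0.961 to 1.02) for H1 and 0.949 (0.846 to 1.07) for H3. The H2B and H4 sums were thus higher in the combination library in both kinds of barcode, and the H2A sum lay on opposite sides of 1. Without Hist1h2bc the H2B ratio was 1.06 (1.01 to 1.11) in marked and 1.04 (0.959 to 1.12) in unmarked barcodes, and without Hist1h4d the H4 ratio was 1.08 (1.001 to 1.16) and 1.18 (1.08 to 1.29). Members went both ways: in marked barcodes 9 of 12 H2B, 8 of 12 H2A and 6 of 8 H4 genes that passed were higher in the combination library. In the other classes 6 of 8 H3 and 3 of 5 H1 genes were lower. The median log2 ratio was 0.04 over the members that passed and 0.02 over all genes that passed. In marked barcodes 0 of the 45 members that passed were 1.5-fold higher on the log2(CPM + 1) scale, where 3.74% of all genes were, and 0 were 1.5-fold lower, where 0.833% were. In unmarked barcodes 0 of the 30 that passed were higher, where 3.2% of all genes were, and 0 were lower, where 0.551% were. The highest in marked barcodes was Hist2h4, an H4 gene, with 25.4 CPM in the combination library and 18.6 CPM in the IL-15SA library, a ratio of 1.36 (1.15 to 1.61). Hist1h2bl had 12.1 and 8.97 CPM, a ratio of 1.35 (1.06 to 1.73). The lowest were H3 genes: Hist1h3a with 6.48 and 9.75 CPM, a ratio of 0.665 (0.497 to 0.885), and Hist1h3d with 9.23 and 12.6 CPM, a ratio of 0.731 (0.571 to 0.932). The difference of Hist1h3a on the log2(CPM + 1) scale was -0.52, short of 1.5-fold, while its plain CPM ratio lies just past it. Hist1h2bc, which holds most H2B UMIs, had a ratio of 1.27 (1.22 to 1.33) in marked and 1.32 (1.25 to 1.39) in unmarked barcodes.

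**Figure D5:**
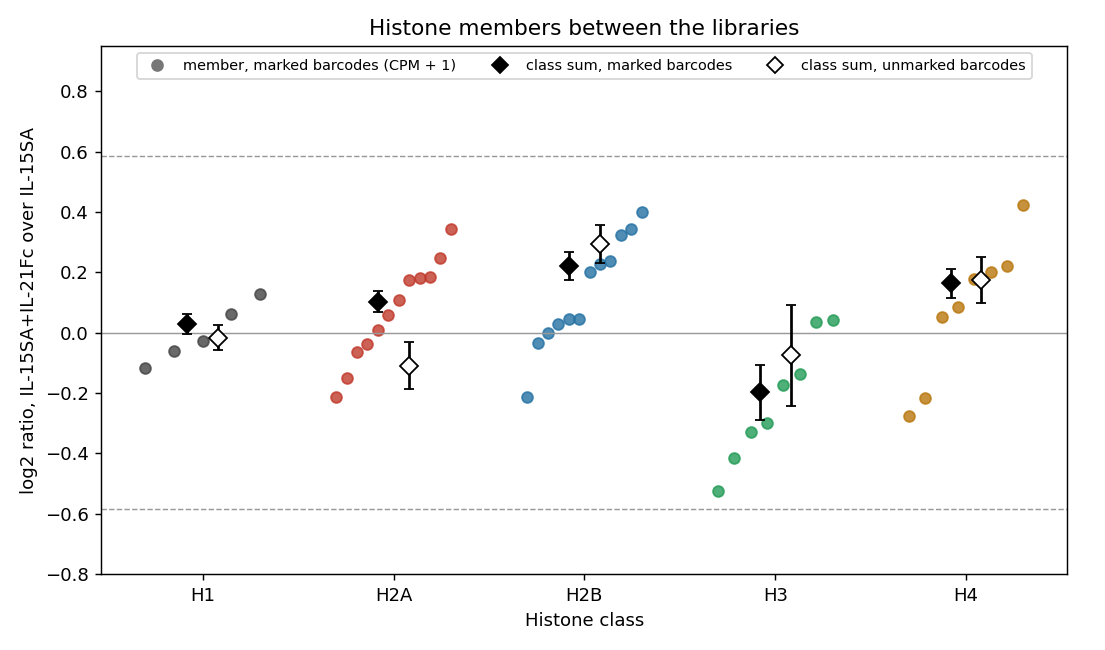
Circles are histone genes that passed 5 CPM, with the log2 ratio of the combination over the IL-15SA library in marked barcodes on the vertical axis and the class on the horizontal axis. Filled and open diamonds are class sums in marked and unmarked barcodes with exact 95% intervals, and dashed lines are 1.5-fold. Every circle lies inside the dashed lines, between -0.52 and 0.42.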

How the data were processed

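Each deposited matrix holds UMI counts per gene and cell barcode, whole numbers that the authors had not normalized. Cells were loaded on a GEXSCOPE microwell chip, per the labels' protocols. The submitters' processing notes name the build mm10 and the tools Scanpy, Seurat version 4, featureCounts and cutadapt, without saying what each did. The sources used here do not state the aligner, the annotation or how barcodes were called. The combination library held 35336180 UMIs in 12435 barcodes and the IL-15SA library 30893388 UMIs in 8386 barcodes.

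All deposited barcodes with Ncr1 were used. Counts were summed by group, divided by the group's UMIs and given as CPM. A gene passed at a mean of 5 CPM over the 2 groups compared, and was called at 2-fold (marked over unmarked) or 1.5-fold (between libraries) on log2(CPM + 1). Intervals are exact at 95%: Poisson for levels, conditional binomial for ratios and Clopper-Pearson for shares, covering counting error only. The members and the gene lists were chosen with earlier results of these data known. Named were, per class, the 4 members with the most UMIs and those with the highest and lowest log2 ratio, the 2 highest and 2 lowest between libraries, the 4 genes of each other list with the largest log2 ratio, and a few factors chosen by name. H2afv, Casp8ap2 and Lsm11 came by that rule. H1f0 and the genes of the marker lists were named beside it, after their values were seen.

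Gene spans and transcripts come from GENCODE M21 (GRCm38), where 53620 of 53715 gene IDs matched. Doublets stayed in: Scrublet's automatic threshold marked 1 barcode in the combination library and 2 in the IL-15SA library, too few to have worked, so an alternative removed the 5% of barcodes with the highest scores (622 and 419). The computation was tested on simulated data. The other alternatives changed the marker threshold, the marker genes, the depth (thinning or matching), the barcodes used, the scaling, the pseudocount, the filter and the members summed. The files held 0 per-sample columns left unused. Python 3.11.15, numpy 2.4.6, scipy 1.17.1, pandas 2.3.3, matplotlib 3.10.9 and scanpy 1.11.5 were used.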

Additional observations from a re-analysis of the deposited data

Results flagged for a closer look

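The log2 ratio of marked over unmarked barcodes pointed opposite ways in the libraries for 2 members. Hist2h2aa2 had -0.19 in the combination library and 0.21 in the IL-15SA library, and Hist1h4c had -0.11 and 0.30. The difference between libraries was not tested, since each treatment had 1 library, and the ratio of each within a library had an interval that holds 1.

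Barcodes with no Ncr1 UMI entered no comparison of the report and also held histone UMIs. In the combination library the summed histone level was 2022 CPM (1928 to 2119) in 260 marked and 1391 CPM (1337 to 1448) in 832 unmarked Ncr1-negative barcodes. In the IL-15SA library it was 2235 CPM (2095 to 2382) in 137 marked and 1596 CPM (1502 to 1695) in 326 unmarked ones. These barcodes were shallower than the Ncr1-positive ones, with a median of 1727 UMIs in the combination library and 1738.5 UMIs in the IL-15SA library.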

How the results depend on the processing

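The summed ratio of marked over unmarked barcodes kept its direction in both libraries under every alternative run. In the combination library (2.24) it was 2.43 at 3 or more marker UMIs, 2.30 matched on UMIs, 2.28 with the quality filter and without the highest doublet scores, 2.32 without barcodes of tumour or stroma markers, 2.31 with Ncr1 at 2 UMIs or more, 2.04 with Rrm2 alone, 2.00325 with Pclaf alone, 2.99 without Hist1h1c and 3.95 per barcode with no scaling. In the IL-15SA library (2.19) it was 2.35 at 3 or more marker UMIs, 2.11 thinned, 2.27 matched, 2.03 with Rrm2 alone, 1.995 with Pclaf alone, 2.96 without Hist1h1c and 3.70 per barcode. With the 45 members of mostly unique windows, an alternative chosen after seeing the data, it was 2.08 in the combination library and 2.025 in the IL-15SA library. Per barcode, 42 members of the combination library were past 2-fold, where 24 were with scaling, since marked barcodes hold more UMIs.

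The small ratio between libraries moved with the depth treatment, the scaling and the barcodes used. In marked barcodes (1.07) it was 1.04 thinned, 1.11 without tumour or stroma markers, 1.085 with Ncr1 at 2 UMIs or more, and 0.886 per barcode. In unmarked barcodes (1.04) it was 0.962 thinned, 0.996 matched and 0.830 per barcode. Over all Ncr1-positive barcodes (0.981) it was 1.07 matched. Members past 1.5-fold between libraries in marked barcodes numbered 4 thinned, 1 matched, 1 without tumour or stroma markers and 2 per barcode, against 0 as reported. The cause was not tested. Of 450 values of named members under the alternatives, 340 changed by less than 0.2 (log2), and the sign changed in 8, all of Hist1h1c, Hist1h3a, Hist1h4c or Hist2h2aa2.

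No paired analysis was possible because each treatment had 1 library. With 1 library a treatment, neither animals nor libraries are replicated, and the intervals cover counting error only.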
